A study of Saccharomyces cerevisiae with 9 samples.

Results

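The transcripts described here are those of 38 budding yeast genes of autophagy, chosen by open reading frame from 5667 genes measured on Affymetrix Yeast 2.0 arrays. They are the ATG genes with VPS30, VPS34, VPS15 and SNX4, and all 38 were measured, each by 1 probe set. The arrays hold RNA from BY4741-background cultures in the rich medium YPD on day 5 after inoculation. The NR cultures had 2% glucose, the CR cultures (caloric restriction) had 0.5% glucose, and the RM cultures had 2% glucose with 100 nM rapamycin, which inhibits TOR complex 1. The labels give 3 biological replicates in each group, 1 per array, and they name no genotype beyond the strain background and no growth stage beyond the day.

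In autophagy a cup-shaped membrane grows around cytoplasm or an organelle, closes into an autophagosome and fuses with the vacuole, where its contents are broken down and the building blocks are returned. The kinase Atg1 with its partners starts the process, Atg9 vesicles and a lipid transfer protein supply membrane, a lipid kinase complex marks it with phosphatidylinositol 3-phosphate, and a pair of ubiquitin-like conjugation systems attaches Atg8 to it. In yeast, starvation and rapamycin are standard ways to induce autophagy, because active TOR complex 1 holds the Atg1 complex in check. Selective forms use receptors that tie one cargo, such as mitochondria, peroxisomes or endoplasmic reticulum, to Atg8. A transcript level does not measure autophagic activity.

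Values are log2 signals as deposited, so a difference of 1 is a factor of 2. Signals are relative within an array, so fewer transcripts per cell and a smaller share of total RNA cannot be told apart. A gene is called higher or lower when it differs by at least 2-fold with a Benjamini-Hochberg adjusted p under 0.05 over all 5667 genes in a limma fit to the 9 arrays, and "rose" and "fell" are used of such genes alone. Levels are compared between cultures for 1 gene and never between genes.

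The arrays were not equally alike within groups. Pearson correlations over genes were 0.9975 to 0.9979 among CR arrays, 0.980 to 0.995 among RM arrays and 0.928 to 0.977 among NR arrays, where NR replicate 3 stood farthest from the others. The labels call all of them biological replicates but do not say whether those of a group came from separate cultures. Where they did not, the spread is technical, as it may be for the closely alike CR arrays, and p-values then measure only the spread between these samples. For the autophagy genes the median SD of log2 signal was 0.361 in NR, 0.177 in RM and 0.0445 in CR, beside 0.294, 0.161 and 0.0553 over all genes. NR replicate 3 was the lowest NR array for 30 of the 38 autophagy genes (78.9%), against 40.7% of all genes. Counts of called autophagy genes against NR are therefore given with and without it. Counts at other fold limits or none, and of genes whose arrays did not overlap, are given with all arrays only. Probe sets for URA3, LEU2 and MET15, which BY4741 lacks, lay at or below the 1.94th percentile of genes on every array, whereas that for HIS3, of which the strain carries a partial deletion, read 5.38 to 6.83. Where the HIS3 probes lie in the gene is not known here, so this signal need not go against the strain. Among 5 mating type a genes the percentile ranged from 13.3 (AGA2) to 97.2 (MFA1) over the arrays. Among 4 alpha genes it ranged from 2.82 (MFALPHA1) to 76.4 (SAG1), and SAG1 read 6.69 to 8.28. The mean of each of the 5 a genes was lower in CR than in NR, most widely for AGA2, at 4.67 against 7.90. Of the alpha genes, STE3 (6.80 in CR against 5.12 in NR) and SAG1 had higher means in CR, and MFALPHA1 and MFALPHA2 lower ones. The part of these readings in the results was not tested.

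The first comparison asks which autophagy transcripts differ between cultures in 0.5% and 2% glucose. Of the 38 genes, 19 were higher in CR than in NR and 2 were lower, while 17 were not called. Over all genes, 17.9% were called higher and 19.9% lower, so the share of autophagy genes called higher (50%) lay above the background and the share called lower (5.26%) below it. The median log2 fold change was 1.005 for autophagy genes and 0.02 for all genes. Without NR replicate 3 the counts were 13 higher and 2 lower (median 0.86), beside 15.7% and 18.5% of all genes. On the arrays themselves, 29 of 38 genes had every CR value above every NR value and 6 had every CR value below, against 38.6% and 36.9% of all genes. At an adjusted p under 0.05 with no fold limit, 27 were higher and 6 lower, beside 35.3% and 33.6% of all genes.

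**Figure D1:**
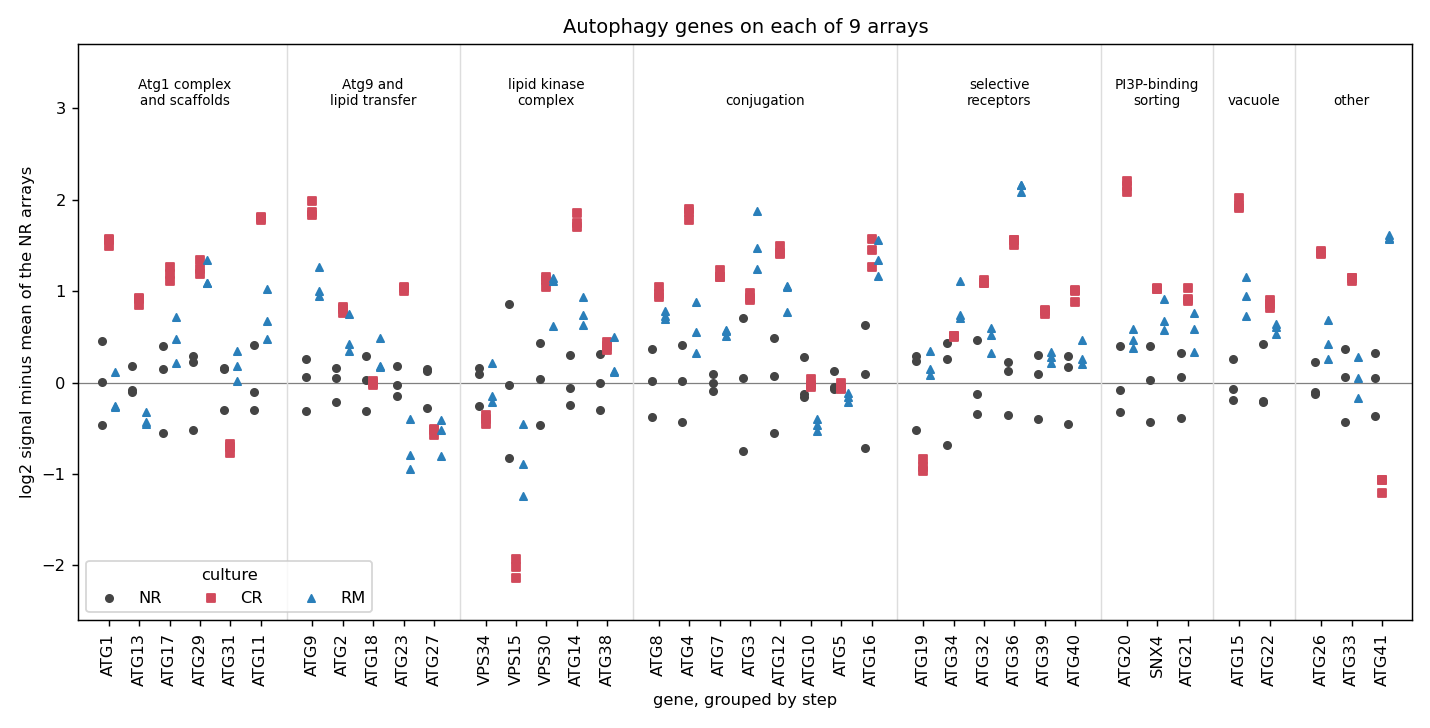
Log2 signal of each of the 38 autophagy genes on each array, minus the mean of the NR arrays, with genes grouped by step along the horizontal axis. Dark grey circles are NR, red squares CR and blue triangles RM arrays. CR squares lie close together for each gene, and for 29 genes they lie above all NR circles.

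The widest rises under CR belonged to genes of different steps. ATG20 (YDL113C), a sorting nexin that binds phosphatidylinositol 3-phosphate and works with Snx4, had log2 signals of 7.29, 6.81 and 6.57 in NR, 9.03, 8.97 and 9.09 in CR, and 7.26, 7.36 and 7.48 in RM. All CR arrays lay well above the others, and CR exceeded NR by 2.14 ± 0.17 (SE) on the log2 scale, 4.41-fold (adjusted p = 7.43e-06). ATG15 (YCR068W), the vacuolar lipase that opens autophagic bodies, read 5.58, 5.25 and 5.13 in NR, 7.23, 7.25 and 7.33 in CR, and 6.27, 6.48 and 6.05 in RM. The groups did not overlap, and CR was 3.87-fold above NR (adjusted p = 6.62e-06). ATG9 (YDL149W), the transmembrane lipid scramblase of the vesicles that seed the membrane, read 8.15, 7.96 and 7.59 in NR, 9.74, 9.89 and 9.76 in CR, and 8.91, 9.17 and 8.84 in RM. It was 3.71-fold higher in CR than in NR (adjusted p = 9.64e-06). ATG4 (YNL223W), the protease that trims Atg8 and later frees it from lipid, read 6.69, 6.29 and 5.84 in NR against 8.17, 8.04 and 8.14 in CR, with RM at 6.82, 7.15 and 6.60. Its CR level was 3.60-fold that of NR (adjusted p = 5.95e-05), while RM overlapped NR. These 4 genes stayed above 2-fold without NR replicate 3, at log2 fold changes of 1.98, 1.85, 1.74 and 1.63.

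In the Atg1 complex and its scaffolds, 4 of 6 genes were higher under CR, or 2 of 6 without NR replicate 3, beside 17.9% and 15.7% of all genes. The kinase gene ATG1 (YGL180W) read 9.60, 9.14 and 8.68 in NR, 10.70, 10.63 and 10.71 in CR, and 8.87, 9.26 and 8.88 in RM. CR stood apart from both other groups and was 2.91-fold above NR (log2 1.54 ± 0.22, adjusted p = 0.000188). ATG11 (YPR049C), the scaffold of selective autophagy, was 3.46-fold higher in CR. The genes for the scaffold partners Atg17 (YLR423C) and Atg29 (YPL166W) were 2.27-fold and 2.39-fold higher, and both fell short of 2-fold without NR replicate 3, at log2 0.91 and 0.9997. ATG13 (YPR185W), the regulatory subunit that TOR complex 1 phosphorylates, differed by 1.86-fold (adjusted p = 0.00012), under the fold limit. ATG31 (YDR022C), the third partner of that scaffold, differed in the opposite direction, at 1.64-fold below NR (adjusted p = 0.00231). Its CR arrays at 7.43 to 7.52 lay under all NR arrays at 7.89 to 8.35.

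Among 5 genes for Atg9 traffic and lipid transfer, ATG9 and ATG23 were called higher, beside 17.9% of all genes. Without NR replicate 3 the count was 1, beside 15.7% of all genes. ATG23 (YLR431C), a peripheral protein that helps Atg9 vesicles form, read 5.83, 6.03 and 5.71 in NR and 6.86, 6.90 and 6.91 in CR, a 2.04-fold difference that fell to log2 0.96 without NR replicate 3. ATG2 (YNL242W), the lipid transfer protein, differed by 1.74-fold in the same direction. ATG18 (YFR021W), its lipid-binding partner, had a log2 difference of -0.0049 with a 95% interval of -0.37 to 0.36. ATG27 (YJL178C), a membrane protein of Atg9 transport, was 1.45-fold lower (adjusted p = 0.011).

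The lipid kinase complex split. Under CR 2 of 5 genes were higher and 1 lower, beside 17.9% and 19.9% of all genes. Without NR replicate 3 both counts were 1, beside 15.7% and 18.5%. VPS34 (YLR240W), the catalytic lipid kinase, read 7.48, 7.54 and 7.13 in NR, 6.93, 7.03 and 6.99 in CR, and 7.18, 7.60 and 7.24 in RM. Its CR arrays lay below all NR arrays by a small margin, a 1.32-fold difference (adjusted p = 0.0403). VPS15 (YBR097W), the protein kinase that activates Vps34, read 5.58, 6.38 and 7.27 in NR, 4.48, 4.28 and 4.40 in CR, and 5.52, 5.17 and 5.95 in RM. The NR arrays spread widely, yet all lay above CR, and VPS15 fell 4.08-fold (log2 -2.03 ± 0.37, adjusted p = 0.000888), or by 1.60 on the log2 scale without NR replicate 3. Both kinases and Vps30 also serve vacuolar protein sorting in a second complex. The subunits on the other side of the balance were ATG14 (YBR128C), specific to the autophagy complex, at 3.40-fold higher, and VPS30 (YPL120W), the yeast Beclin, at 2.15-fold higher. VPS30 did not keep its call without NR replicate 3 (log2 0.87). ATG38 (YLR211C), a linker of the autophagy complex, was not called (1.32-fold, adjusted p = 0.062). VPS38, the subunit specific to the second complex, was named after its values were seen. It too was higher in CR than in NR, by 2.44-fold (adjusted p = 4.74e-05), and kept its call without NR replicate 3 (log2 1.22). The rise was thus not particular to the autophagy complex.

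**Figure D2:**
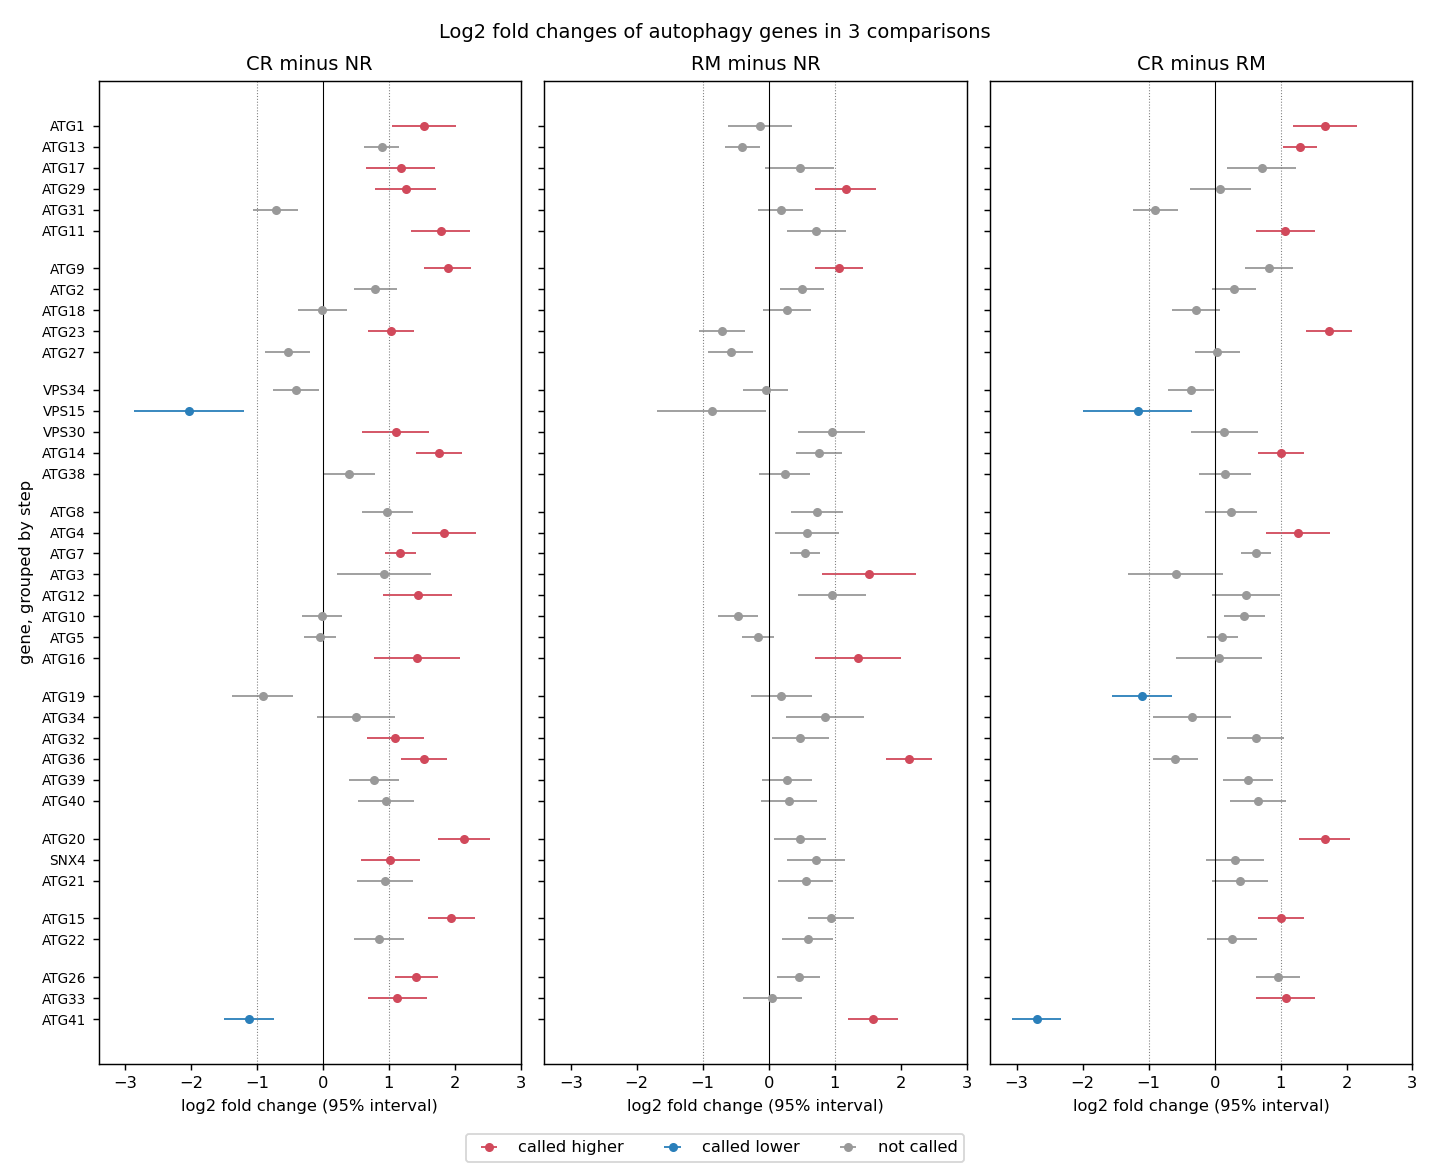
Log2 fold changes with 95% intervals from the limma fit for the 38 autophagy genes, grouped by step, in CR minus NR, RM minus NR and CR minus RM. Red points were called higher, blue lower and grey not called, and dotted lines mark 2-fold. CR minus NR holds 19 red and 2 blue points, RM minus NR 6 red ones, and CR minus RM 9 red and 3 blue.

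In the conjugation systems 4 of 8 genes were higher under CR, with and without NR replicate 3, beside 17.9% and 15.7% of all genes. They were ATG4, ATG12 (YBR217W), the ubiquitin-like partner of Atg5, at 2.71-fold, ATG16 (YMR159C), which joins Atg5 and Atg12 into the enzyme for Atg8, at 2.69-fold, and ATG7 (YHR171W), the shared activating enzyme, at 2.26-fold. ATG8 itself (YBL078C), the ubiquitin-like protein that coats the membrane, read 11.09, 10.74 and 10.35 in NR, 11.77, 11.66 and 11.69 in CR, and 11.45, 11.50 and 11.42 in RM. Every CR array and every RM array exceeded every NR array, and the CR difference of 1.98-fold (adjusted p = 0.000731) lay just under the fold limit. ATG3 (YNR007C), the enzyme that passes Atg8 to lipid, differed by 1.91-fold (adjusted p = 0.0246). ATG5 (YPL149W) and ATG10 (YLL042C), which conjugates Atg12 to Atg5, had log2 differences of -0.05 and -0.01, with 95% intervals of -0.28 to 0.19 and -0.32 to 0.30.

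Of the 6 selective receptors, 2 were higher under CR, or 1 without NR replicate 3, beside 17.9% and 15.7% of all genes. ATG36 (YJL185C), the receptor for peroxisomes, read 8.69, 8.79 and 8.21 in NR, 10.12, 10.07 and 10.12 in CR, and 10.73, 10.72 and 10.64 in RM. Its NR arrays lay below all others, and CR was 2.90-fold above NR (adjusted p = 2.52e-05). ATG32 (YIL146C), the receptor for mitochondria, read 9.47, 8.89 and 8.67 in NR, 10.10, 10.13 and 10.10 in CR, and 9.52, 9.61 and 9.34 in RM. CR was 2.15-fold above NR (adjusted p = 0.000691), and 1 NR array lay within the RM range. Without NR replicate 3 its log2 difference was 0.93, under the limit.

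The receptors for endoplasmic reticulum differed by less than 2-fold. ATG40 (YOR152C) read 8.60, 8.48 and 7.86 in NR, 9.19, 9.31 and 9.32 in CR, and 8.52, 8.78 and 8.57 in RM, so that CR lay above both other groups, at 1.95-fold NR (adjusted p = 0.00139). ATG39 (YLR312C), which also serves the nuclear envelope, read 10.82, 10.61 and 10.12 in NR, 11.30, 11.27 and 11.31 in CR, and 10.73, 10.80 and 10.85 in RM. CR again lay above both other groups, at 1.72-fold NR (adjusted p = 0.00249).

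The remaining receptor genes, ATG19 and ATG34, are neighbours on chromosome XV and have related products. ATG19 (YOL082W), which brings vacuolar enzymes to the vacuole in the Cvt pathway, read 7.23, 7.98 and 8.03 in NR, 6.82, 6.91 and 6.78 in CR, and 7.89, 7.83 and 8.09 in RM. CR lay below every other array, at 1.88-fold under NR (adjusted p = 0.00314), which is not a call. ATG34 (YOL083W), which carries alpha-mannosidase in starved cells, read 10.05, 10.22 and 9.10 in NR, 10.29, 10.30 and 10.30 in CR, and 10.49, 10.53 and 10.89 in RM. All CR arrays lay above NR by a small margin, and it was not called (1.42-fold, adjusted p = 0.11).

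Of the other genes under CR, SNX4 (YJL036W), the sorting nexin partner of Atg20, was 2.04-fold higher, and ATG21 (YPL100W), a lipid-binding protein that recruits the Atg8 machinery, differed by 1.93-fold. ATG22 (YCL038C), a vacuolar exporter of amino acids, differed by 1.81-fold, and by 1.07 on the log2 scale without NR replicate 3, where it was called. ATG26 (YLR189C), a sterol glucosyltransferase, was 2.67-fold higher, and ATG33 (YLR356W), a mitochondrial outer membrane protein of mitophagy, was 2.19-fold higher. SNX4 and ATG33 were not called without NR replicate 3 (log2 0.81 and 0.92). ATG41 (YPL250C), an Atg9-binding protein needed for normal autophagosome number, fell 2.17-fold (adjusted p = 0.000277). Without NR replicate 2 that fall was 0.95 on the log2 scale, under the limit.

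**Figure D3:**
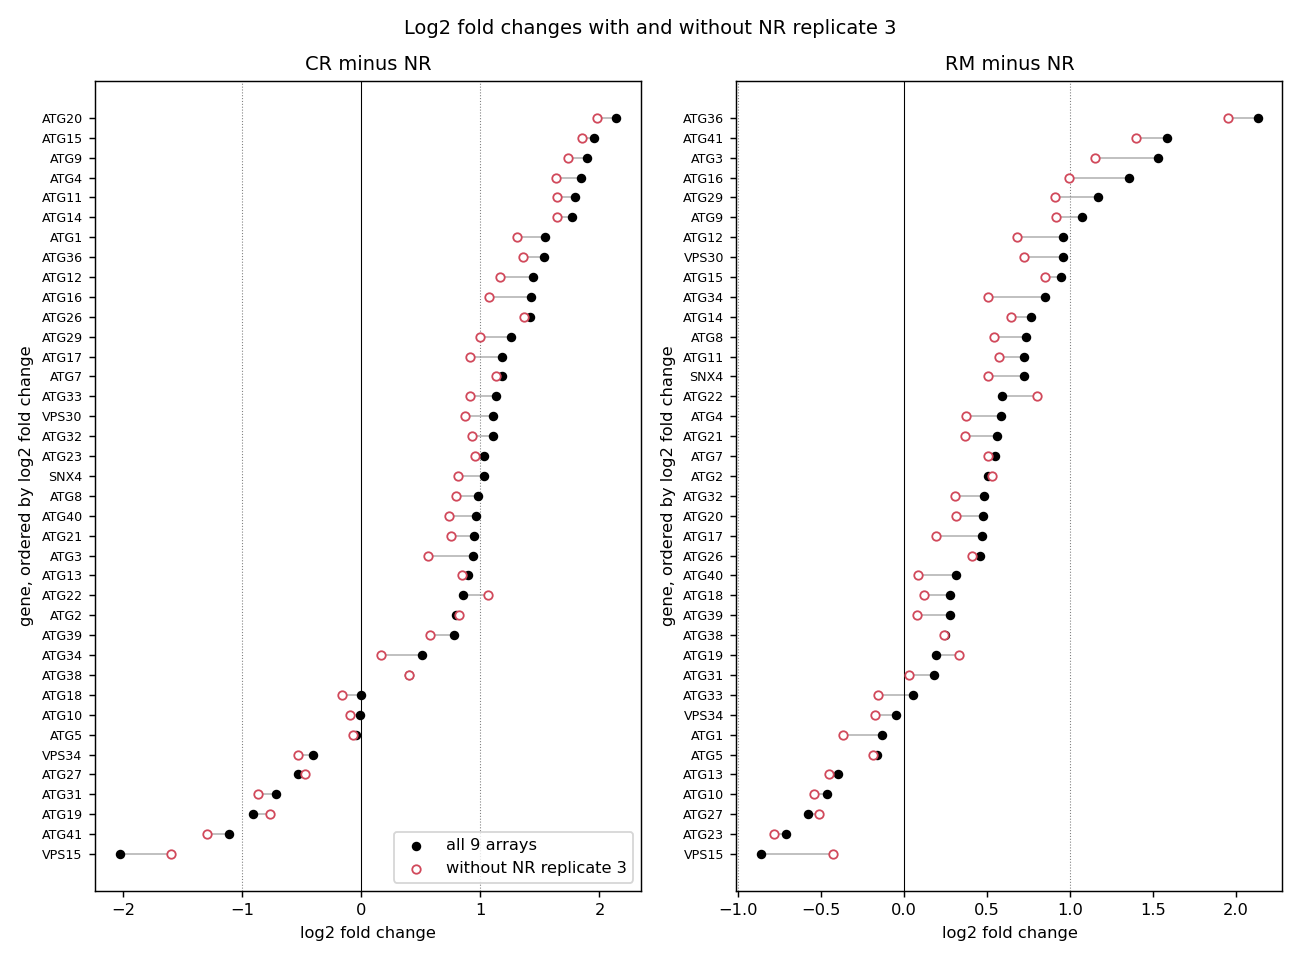
Log2 fold change of each autophagy gene against NR with all 9 arrays (black points) and without NR replicate 3 (open red points), for CR minus NR and RM minus NR, with genes ordered by value and dotted lines at 2-fold. Most open points lie to the left of the black ones, with a median shift of -0.16 in both panels.

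The next comparison asks which autophagy transcripts differ when rapamycin is added at the same glucose. Of the 38 genes, 6 were higher in RM than in NR (15.8%), against 3.99% of all genes. In the limma fit 0 were called lower, against 4.66% of all genes. At an unadjusted p under 0.05 of that fit, with no fold limit, 5 were lower, beside 1434 of all 5667 genes. The authors' deposited table also gives 0 lower at 2-fold, beside 218 of all genes. The median log2 fold change was 0.49 for autophagy genes and -0.05 for all genes. Without NR replicate 3 the called genes numbered 3, namely ATG36, ATG41 and ATG3 (7.89%, beside 3.09% of all genes), and of all genes 3.55% were then lower. With no fold limit 19 autophagy genes were higher and 4 lower, beside 17.6% and 19.4% of all genes. On every RM array 19 lay above and 5 lay below all NR arrays, against 20.8% and 22.7% of all genes. These values rest on the same NR arrays as those of CR over NR.

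ATG36, the peroxisome receptor, rose most, by 2.13 ± 0.15 on the log2 scale or 4.38-fold (adjusted p = 5.86e-05). Its RM arrays, given above, were also above every CR array. ATG41 read 7.29, 7.57 and 6.87 in NR, 6.03, 6.18 and 6.18 in CR, and 8.83, 8.85 and 8.81 in RM. The 3 groups were fully apart, with CR lowest and RM highest, and RM exceeded NR by 1.59 ± 0.17 on the log2 scale (adjusted p = 0.000436). ATG3 read 9.14, 8.49 and 7.69 in NR, 9.37, 9.34 and 9.42 in CR, and 9.91, 10.32 and 9.68 in RM. RM was 2.88-fold above NR (adjusted p = 0.00724). ATG16 read 4.91, 4.38 and 3.58 in NR, 5.74, 5.55 and 5.86 in CR, and 5.45, 5.85 and 5.63 in RM, so that RM and CR overlapped and both lay above NR. The RM level of ATG16 was 2.56-fold that of NR (adjusted p = 0.00812). ATG29 and ATG9 completed the called genes, at 2.25-fold and 2.10-fold. ATG16, ATG29 and ATG9 had log2 fold changes of 0.9965, 0.91 and 0.92 without NR replicate 3, each under the limit, and ATG9 had 0.97 without RM replicate 2.

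The remaining genes under rapamycin lay between log2 -0.86 for VPS15 (adjusted p = 0.0935) and 0.96 for ATG12 (adjusted p = 0.0127). Called genes came from the scaffold (ATG29), Atg9 (ATG9), conjugation (ATG3, ATG16) and receptor (ATG36) groups, with ATG41, beside 3.99% of all genes called higher. Without NR replicate 3 the scaffold and Atg9 groups had 0 called and the conjugation group only ATG3, beside 3.09% of all genes. The lipid kinase group, the sorting group and the vacuolar pair had medians of 0.24, 0.56 and 0.77 on the log2 scale with no gene at 2-fold. Beside 3.99% of all genes, the absence of a call in groups this small says little. ATG1 had a log2 difference of -0.14 (95% interval -0.62 to 0.35), and its RM arrays lay within the NR range. ATG13 and ATG23 lay below NR on every RM array, by 1.32-fold (adjusted p = 0.027) and 1.64-fold (adjusted p = 0.00888). ATG8 was 1.66-fold above NR (adjusted p = 0.0115).

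**Figure D4:**
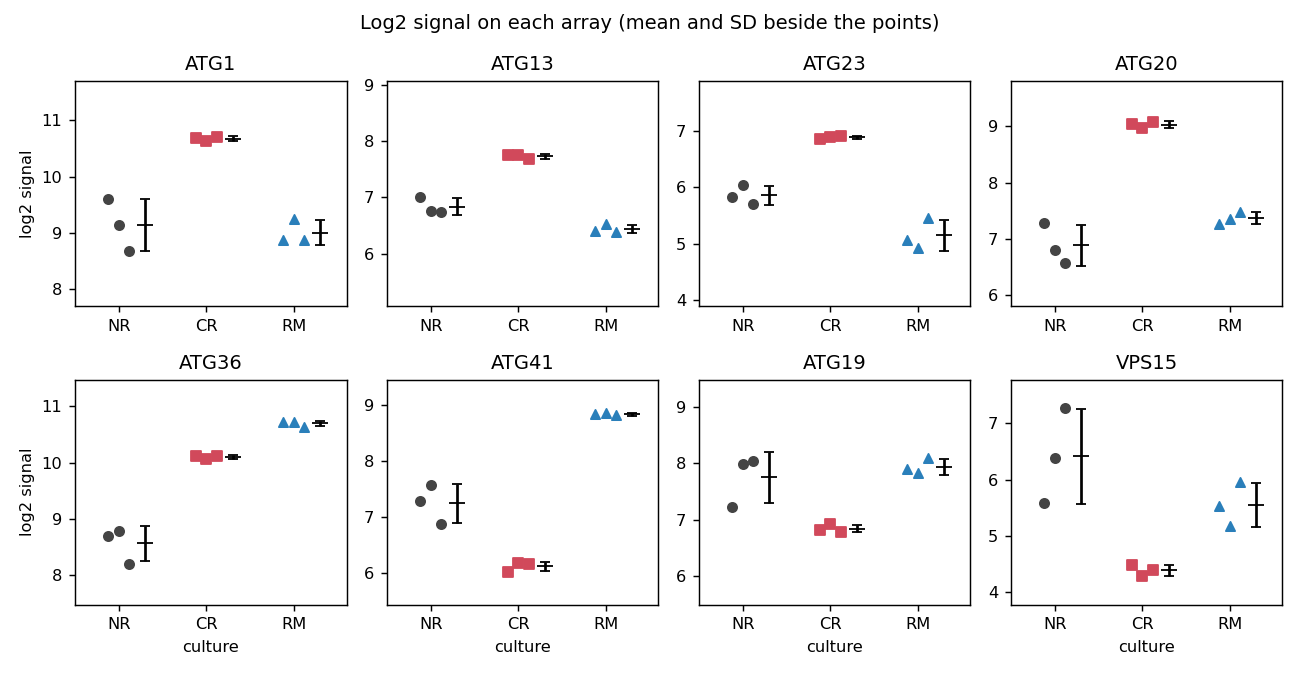
Log2 signal of 8 autophagy genes on each array, with the mean and SD of 3 arrays beside the points and the same height of axis in every panel. ATG1, ATG13, ATG23 and ATG20 are highest in CR, ATG36 and ATG41 are highest in RM, and ATG19 and VPS15 are lowest in CR.

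The direct comparison of low glucose with rapamycin subtracts RM means from CR means, with no NR array in the subtraction. Any influence of the NR arrays through the processing of the deposited signals was not tested. Of the 38 genes, 9 were higher in CR than in RM (23.7%) and 3 were lower (7.89%), against 12.7% and 13.2% of all genes. The median log2 difference was 0.35 for autophagy genes and 0.002 for all genes. The NR arrays enter the estimate of spread, and a fit to the CR and RM arrays alone called the same 12 genes. With no fold limit 17 were higher and 5 lower, beside 29.7% and 26.4% of all genes. For 24 genes all CR arrays lay above all RM arrays and for 9 below, against 38.9% and 37% of all genes.

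ATG23 had the widest difference in favour of CR, since its RM arrays at 5.07, 4.92 and 5.46 lay below NR while its CR arrays at 6.86 to 6.91 lay above it. CR exceeded RM by 1.74 ± 0.16 on the log2 scale, 3.34-fold (adjusted p = 2.04e-05). ATG1 was 3.19-fold higher in CR than in RM (adjusted p = 0.000167), and ATG20 was 3.18-fold higher (adjusted p = 4.76e-05). ATG13 read 7.02, 6.76 and 6.74 in NR, 7.76, 7.75 and 7.68 in CR, and 6.41, 6.52 and 6.38 in RM. The 3 groups did not overlap, RM being lowest, and CR was 2.45-fold above RM (adjusted p = 2.17e-05). With ATG11 at 2.10-fold, 3 of the 6 genes of the Atg1 complex and its scaffolds were thus higher in CR than in RM. The share of all genes was 12.7%.

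The other genes higher in CR than in RM were ATG4 at 2.40-fold, ATG33 at 2.11-fold, ATG15 at 2.01-fold and ATG14 at 2.00-fold. Those near the fold limit lost the call when single arrays were left out. ATG14 and ATG15 did so without CR replicate 3 (log2 0.96 and 0.97) and without RM replicate 3 (0.99 and 0.90), and ATG14 also without RM replicate 1 (0.93). ATG33 did so without RM replicate 2 (0.96) and ATG11 without RM replicate 3 (0.94).

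The genes lower in CR than in RM were ATG41, at 6.50-fold (log2 -2.70 ± 0.17, adjusted p = 3.05e-06), VPS15, at 2.24-fold (adjusted p = 0.0221), and the Cvt receptor ATG19, at 2.14-fold (adjusted p = 0.00143). VPS15 lost its call without CR replicate 2, CR replicate 3, RM replicate 1 or RM replicate 3, at adjusted p of 0.064, 0.0541, 0.0557 and 0.0839, and the authors' deposited table gives 0.085. ATG31 was 1.86-fold lower in CR (adjusted p = 0.000844) and ATG36 was 1.51-fold lower (adjusted p = 0.00864), both under the limit. The other receptors ranged from log2 -0.34 for ATG34 (adjusted p = 0.288) to 0.65 for ATG40 (adjusted p = 0.0147). ATG16, ATG29 and VPS30 had differences of 0.07, 0.09 and 0.15, with 95% intervals of -0.58 to 0.72, -0.37 to 0.55 and -0.36 to 0.66.

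Other genes of the pathway were followed in 4 lists, whose counts stand beside the shares of all genes called higher and lower, which were 17.9% and 19.9% in CR over NR, 3.99% and 4.66% in RM over NR, and 12.7% and 13.2% in CR over RM. Regulators of autophagy genes and of Atg1 had 8 of 23 members higher and 1 lower in CR than in NR (median 0.47), 1 higher in RM than in NR, and 5 higher and 1 lower in CR than in RM. The 1 of 23 in RM lay near the background. The counts in CR over NR were the same without NR replicate 3. DHH1, an RNA helicase that acts on ATG transcripts, rose 4.83-fold in CR over NR (adjusted p = 5.87e-06), and MSN4, a stress response activator, fell by 4.16 on the log2 scale (adjusted p = 1.45e-06). MSN2, another such activator in the list, was named after its values were seen. It went the other way, at log2 1.63 higher in CR than in NR (adjusted p = 4.07e-06). The gene higher in RM was HAP2, a subunit of the CCAAT-binding activator, at log2 1.16 (adjusted p = 0.0113), or 0.83 without NR replicate 3, where it was not called. HAP2 was also higher in CR than in NR, by log2 1.60 (adjusted p = 0.000551). UME6 and RPH1, repressors of ATG8 and of several ATG genes, were named after their values were seen: they were higher in CR than in NR by log2 1.49 (adjusted p = 2.94e-05) and 1.04 (adjusted p = 5.29e-05).

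Genes for fusion of the autophagosome with the vacuole, listed with TRS85 of autophagosome formation, had 2 of 14 members higher and 4 lower in CR than in NR. The median was -0.39, and both counts lay near the background of 17.9% and 19.9%. The largest were the SNARE gene VTI1, 3.26-fold higher, and VPS16, a subunit of the HOPS and CORVET tethers, at log2 -1.11. VTI1 was the one gene of this list called in CR over NR without NR replicate 3, where VPS16 had a log2 difference of -0.89. VTI1 was also 2.51-fold higher in CR than in RM. Vacuolar hydrolases and Cvt cargo had 1 of 8 called lower in CR over NR, beside 19.9% of all genes, the aminopeptidase and Cvt cargo gene APE1, which was 2.07-fold lower (adjusted p = 0.0149) and had a log2 difference of -0.64 without NR replicate 3, under the limit. Without that array the called gene was APE3, another vacuolar aminopeptidase, named after its values were seen, at log2 -1.02 (adjusted p = 0.00206). In RM over NR, APE1 was 2.12-fold lower (adjusted p = 0.0272) and the alpha-mannosidase AMS1, another Cvt cargo, 2.30-fold higher (adjusted p = 0.00284), and neither was called without NR replicate 3. For APE1 the authors' deposited table gives p-values of 0.071 in CR over NR and 0.0623 in RM over NR, neither under 0.05.

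The list of other factors of selective autophagy had 7 of 14 members higher and 1 lower in CR than in NR (median 1.07), beside 17.9% and 19.9% of all genes. It includes VPS38, described above as specific to the second lipid kinase complex, among the genes counted as higher. The counts were the same without NR replicate 3, beside 15.7% and 18.5% of all genes. The peroxisomal docking protein gene PEX14 was 3.13-fold higher, and TSC13, an enoyl reductase found at the junction of nucleus and vacuole, was 3.16-fold lower. In RM over NR the 1 gene called, beside 3.99% of all genes higher, was PEX3, at 2.69-fold higher (adjusted p = 0.00413). It encodes the peroxisomal membrane protein that Atg36 binds. PEX3 was also 2.73-fold higher in CR than in NR (adjusted p = 0.000838). In CR over RM, 6 were higher, again including VPS38, and 1 was lower, beside 12.7% and 13.2% of all genes. BRE5, a cofactor of the deubiquitinase Ubp3 in ribophagy, led at 2.80-fold higher.

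**Figure D5:**
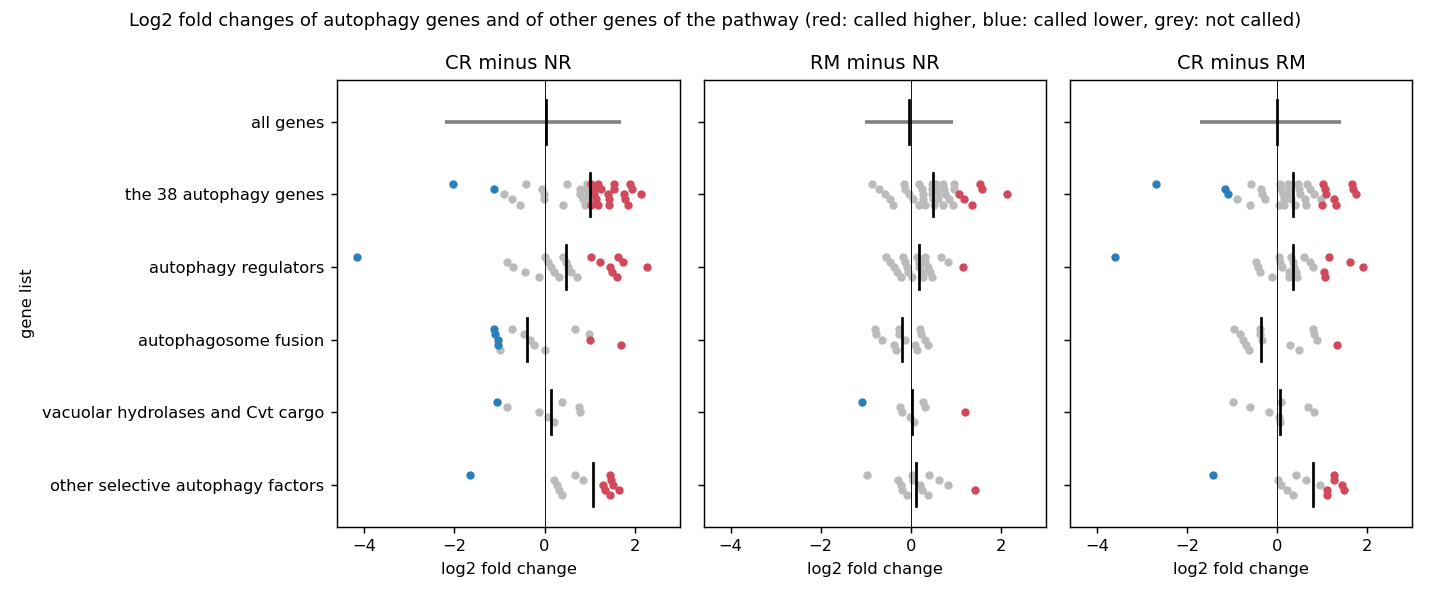
Log2 fold changes of the 38 autophagy genes and of 4 lists of other pathway genes in 3 comparisons, 1 point per gene, with red called higher, blue called lower and grey not called. Black ticks are medians, and the grey bar for all 5667 genes spans the 5th to the 95th percentile. The median of the autophagy genes is 1.005, 0.49 and 0.35 in the 3 panels.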

How the data were processed

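Total RNA from 9 samples was hybridised to Affymetrix Yeast 2.0 arrays, per the labels' protocols. Values were taken from the log2 signals per probe set that the authors deposited. RMA and Transcriptome Analysis Console 2.0 are named in the submitters' processing notes, but not what each was used for. The authors' deposited table of signed linear fold changes (a ratio below 1 is written as minus its inverse) and p-values equals the differences of group means in those signals within 7.14e-10 on the log2 scale, and its p-values above 1e-05 equal Tukey p-values over 3 groups within 1% for 100% of genes. Its header names pairwise comparison only. The arrays' number limits the precision.

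The first listed probe set of each open reading frame was used, with no filter on low signals, giving 5667 genes, of which 5646 matched a locus tag of the RefSeq table (assembly R64). A limma 3.58.1 fit in R 4.3.3 (lmFit, eBayes, 1 mean per group) gave fold changes, SE and adjusted p. It was also run on simulated data in which each gene had the same spread in every group. The arrays do not have this, so that run does not cover their unequal spread. Deviations of same-numbered arrays from their group means correlated between -0.198 and 0.348, so the numbers do not pair the arrays, and no block was used. Sequences were not analysed here.

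Members and gene lists were chosen with earlier results of these data known. Named genes are all 38, with array values for up to 4 called highest and lowest in each comparison and for ATG1, ATG8, VPS34, VPS15 and the receptors, and the 2 largest calls of each other list. Alternatives were the replicate block, other fold and p limits, an intensity trend, median centring, renewed quantile normalization, a filter on dim genes, the mean over probe sets, the deposited p-values and each array left out. Array weights, fits to the 2 groups compared and the repeat of every value without NR replicate 3 were added after the data were seen.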

Additional observations from a re-analysis of the deposited data

How the results depend on the processing

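Of 39 calls (a gene in a comparison), 23 were kept under every alternative that refits or rescales the data and still tests the gene, and 0 changed sign. The replicate block left the counts at 19 higher and 2 lower for CR over NR, 6 and 0 for RM over NR, and 9 and 3 for CR over RM. It changed no call of an autophagy gene. Over all genes the counts were then 1014 and 1130, 228 and 270, and 721 and 754.

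The fold limit moved the counts most. With no limit, the higher and lower counts were 27 and 6 for CR over NR, 19 and 4 for RM over NR, and 17 and 5 for CR over RM. Over all 5667 genes they were 2003 and 1902, 997 and 1102, and 1684 and 1496. At 1.5-fold they were 27 and 4, 15 and 1, and 15 and 5. Over all genes they were then 1646 and 1638, 699 and 765, and 1351 and 1262. At 3-fold they were 6 and 1, 2 and 0, and 3 and 1. Over all genes they were then 367 and 624, 45 and 44, and 192 and 328.

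Leaving out 1 array gave 13 to 23 higher and 1 to 3 lower in CR over NR (median 0.86 to 1.16), 3 to 9 higher and 0 to 1 lower in RM over NR (median 0.37 to 0.63), and 6 to 9 higher and 2 to 3 lower in CR over RM (median 0.29 to 0.42). The lowest counts of higher genes against NR are those without NR replicate 3, and the count of 1 lower in CR over NR is that without NR replicate 2. Without NR replicate 3, 890 of all genes were higher in CR over NR and 175 in RM over NR. Without NR replicate 1, where 23 and 9 autophagy genes were higher, 1120 and 341 of all genes were. There 3 and 1 autophagy genes were lower, beside 1255 and 442 of all genes. In CR over RM without RM replicate 3, 6 autophagy genes were higher and 2 lower, beside 695 and 679 of all genes. Without RM replicate 2 the counts were 9 and 3, beside 746 and 771 of all genes. Without NR replicate 2, 1133 of all genes were lower in CR over NR. ATG23 and SNX4 in CR over NR and ATG14 and ATG15 in CR over RM lost their calls when arrays were centred on the median (log2 0.98, 0.98, 0.94 and 0.94). After renewed quantile normalization RM over NR had 9 higher, beside 266 of all genes. SNX4 in CR over NR and VPS15 and ATG15 in CR over RM then lost their calls. Leaving out the dimmest genes removed some called genes from the test and lost no other call. Array weights by group called the same genes.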
